A study of Mus musculus with 6 samples.

Results

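Endothelial cells line the blood vessels of skeletal muscle, and 35 genes of this lineage were followed here in the H3K27ac profile of mouse quadriceps. H3K27ac, an acetylation of histone H3, marks active promoters and enhancers, and it was measured by ChIP sequencing. A peak belonged to a gene when the deposited table named that gene as the nearest to the peak. By this rule, 156 of 46988 peaks of the control table and 132 of 40721 peaks of the detrained table belonged to the 35 genes, and each of the 35 had at least 1 peak in both tables.

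The samples were quadriceps of wild-type male C57BL/6 mice (C57BL/6J in the study's methods), caged alone from 8 weeks of age for 4 weeks. Control mice stayed sedentary, without a wheel. Detrained mice ran voluntarily on a wheel for those 4 weeks and then rested for 72 h before harvest, and the wheel was the only stated difference in treatment. Each group had 2 H3K27ac libraries and 1 input library of chromatin that was not immunoprecipitated. The control libraries are called C2 and C3 and the detrained libraries Ex1 and Ex2, after their columns, and the 2 control columns could be tied to their group but not to a numbered mouse. The 2 input samples carry the strain labels C57BL/7 and C57BL/8. The question the design asks is whether the H3K27ac of muscle still differs from that of sedentary mice after the exercise has stopped.

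The H3K27ac libraries held between 20805019 and 22400894 tags, and 44.8% to 49.4% of these lay in the listed peaks. The control input held 10812470 tags and the detrained input 21298438, so peaks of the groups were called over inputs of different depth. The study called peaks for each group against its own input, which gave separate tables of different peaks that were normalized separately. No test was therefore made between the groups, and with 2 libraries against 2 an exact two-sided permutation test could not give a p under 0.333. Values are set side by side, with the SD between the libraries of a group pooled over both groups (n = 2 libraries per group). Because whole muscle was used, a larger number of endothelial cells and more acetylation per endothelial cell cannot be told apart in any value that follows. The tissue label was met by its defining genes: 13 of 14 skeletal muscle fiber markers had a peak in each table, with summed tags per 10000000 of 10656 (C2) and 13353 (C3) against 12682 (Ex1) and 12000 (Ex2). Troponin T3 (Tnnt3) had none. Only 3 of the 13 sums were higher in detrained muscle (against 42.4% of all genes), with a median log2 ratio of -0.12. Myh4, a fast myosin heavy chain, had 75.1 and 83.5 against 814 and 788. Its peaks numbered 3 in control and 1 in detrained muscle. Whether overlapping peaks were assigned to neighboring myosin genes was not tested, so the size of this difference may reflect assignment.

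Endothelial identity rests on a small set of transcription factors. ETS family factors such as ERG, FLI1 and ETS1 bind many endothelial promoters and enhancers, SOX7, SOX17 and SOX18 of the SOXF group act with them, and TAL1, LYL1 and GATA2 serve both endothelial and blood-forming cells. Their known targets include the adhesion proteins of endothelial junctions, the TIE receptors, which sense angiopoietins, and the Notch pathway, through which neighboring cells settle between sprouting and quiet states. In muscle the capillaries also pass fatty acids to the fibers. Endurance exercise is known to expand this capillary bed.

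Promoter sequences are shown first, because strong H3K27ac peaks covered them in both groups and because the lineage factors are known to bind short words in such promoters. RefSeq promoter windows of the mouse build GRCm38.p6, which has the coordinates of mm10 used in the files, were matched by symbol for 16 of the 35 genes. Each line gives the 250 bases before a transcription start, 5′ to 3′ on the strand of the gene. Capitals mark ETS words (CAGGAA or CCGGAA), SOX words (ACAAT) and GATA words (AGATAA) on either strand. The windows of Cd34, Egfl7, Tal1 and Erg were those with the strongest shared H3K27ac peak among windows free of longer annotated exons, and those of Rasip1 (log2 density ratio -0.52), Eng (-0.12) and Tie1 (0.30) were at the extremes of the ratio between the groups. They lie at chr1:194938571-194938820 (Cd34, plus strand), chr2:26580833-26581082 (Egfl7, plus), chr4:115056176-115056425 (Tal1, plus), chr16:95459349-95459598 (Erg, minus), chr7:45627287-45627536 (Rasip1, plus), chr2:32646345-32646594 (Eng, plus) and chr4:118489850-118490099 (Tie1, minus). The Eng stretch holds none of the marked words.
Cd34: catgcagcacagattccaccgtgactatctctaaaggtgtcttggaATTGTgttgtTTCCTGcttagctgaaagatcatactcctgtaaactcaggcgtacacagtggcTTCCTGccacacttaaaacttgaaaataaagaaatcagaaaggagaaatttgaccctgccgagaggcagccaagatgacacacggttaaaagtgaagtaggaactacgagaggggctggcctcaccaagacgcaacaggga
Egfl7: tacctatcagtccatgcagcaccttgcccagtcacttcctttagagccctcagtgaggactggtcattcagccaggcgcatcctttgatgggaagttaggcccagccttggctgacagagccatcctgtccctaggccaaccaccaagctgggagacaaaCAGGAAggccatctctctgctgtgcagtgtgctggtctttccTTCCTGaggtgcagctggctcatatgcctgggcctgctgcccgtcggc
Tal1: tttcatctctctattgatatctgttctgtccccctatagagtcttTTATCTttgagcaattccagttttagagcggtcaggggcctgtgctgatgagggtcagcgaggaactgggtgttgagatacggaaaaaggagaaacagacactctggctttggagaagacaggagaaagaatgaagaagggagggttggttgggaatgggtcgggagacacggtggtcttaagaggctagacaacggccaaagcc
Erg: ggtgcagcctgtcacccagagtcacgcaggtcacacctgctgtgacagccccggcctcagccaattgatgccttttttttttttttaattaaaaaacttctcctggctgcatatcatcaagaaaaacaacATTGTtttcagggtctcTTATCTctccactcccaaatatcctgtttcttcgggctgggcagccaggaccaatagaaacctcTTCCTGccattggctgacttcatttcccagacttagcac
Rasip1: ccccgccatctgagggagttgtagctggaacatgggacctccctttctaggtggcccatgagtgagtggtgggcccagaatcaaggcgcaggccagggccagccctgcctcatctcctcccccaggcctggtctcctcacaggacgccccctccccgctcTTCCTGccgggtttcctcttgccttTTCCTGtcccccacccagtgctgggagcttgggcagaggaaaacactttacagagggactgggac
Eng: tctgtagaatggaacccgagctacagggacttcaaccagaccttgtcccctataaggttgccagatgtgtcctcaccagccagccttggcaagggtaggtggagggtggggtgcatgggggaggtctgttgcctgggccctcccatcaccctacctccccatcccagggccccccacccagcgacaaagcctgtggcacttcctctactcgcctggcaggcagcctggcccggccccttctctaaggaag
Tie1: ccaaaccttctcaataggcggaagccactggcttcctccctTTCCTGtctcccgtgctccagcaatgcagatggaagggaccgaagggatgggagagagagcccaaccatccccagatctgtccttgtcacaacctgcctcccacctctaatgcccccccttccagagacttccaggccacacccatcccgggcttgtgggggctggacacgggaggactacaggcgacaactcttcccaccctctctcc

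A CAGGAA word stood in 13 of the 22 windows of the 16 matched genes (59.1%), against 30.6% of all 32851 RefSeq windows of the same 300 bases. The other ETS word, CCGGAA, stood in 1 of the 22 (4.55%), in Lyl1, against 14.9% of all windows. ACAAT was present in 7 windows (31.8%, against 31.0% of all) and AGATAA in 3 (13.6%, against 11.2%), those of Erg, Tal1 and Tek. The E-box CANNTG, the kind of word that TAL1 and LYL1 bind, was present in 14 windows (63.6%, against 72.3%). Some genes gave several windows, one for each start, and a word in a window is a match of letters and not a bound site. Of the 22 windows, 17 from 15 genes lay within a peak in both tables.

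Away from the promoters, 1 intronic peak of Fli1 and 1 of Notch1 differed by at least 1.5-fold in density between the groups, and the middle 200 bases of each overlap are shown on the plus strand with the same capitals. They lie at chr9:32478325-32478524 in intron 1 of Fli1 and at chr2:26497474-26497673 in intron 2 of Notch1. The Notch1 stretch held 1 CAGGAA word, and the Fli1 stretch held none of the 4 ETS, SOX and GATA words.
Fli1 intron: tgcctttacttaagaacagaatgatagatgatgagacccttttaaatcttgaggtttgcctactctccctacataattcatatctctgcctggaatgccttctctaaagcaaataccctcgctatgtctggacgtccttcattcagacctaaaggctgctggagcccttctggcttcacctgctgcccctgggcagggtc
Notch1 intron: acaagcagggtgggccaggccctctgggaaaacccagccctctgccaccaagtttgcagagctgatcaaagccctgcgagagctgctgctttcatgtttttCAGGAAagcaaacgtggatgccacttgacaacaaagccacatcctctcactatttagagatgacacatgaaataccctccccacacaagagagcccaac

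Most peaks of the 35 genes lay outside promoters. Among the control peaks 67 were intergenic, 66 intronic, 9 at a promoter and 8 in an exon, and among the detrained peaks 53 were intergenic, 63 intronic, 8 at a promoter and 2 in an exon. Promoter peaks made up 5.77% and 6.06% of the genes' peaks, against 11.2% and 12.6% of all peaks. The start of the gene itself was covered by a peak in 31 of the 35 genes in each table. The starts left uncovered were those of Erg, Vwf, Plvap and Gata2 in control and of Erg, Plvap, Icam2 and Gata2 in detrained muscle, counting the farthest upstream RefSeq start. Erg, Gata2 and Icam2 have downstream starts that lay in peaks. The start of Dll4 lay in a peak that both tables assign to the neighboring Gm14207. The median log2 enrichment over input was 2.29 for the control peaks and 2.25 for the detrained peaks of these genes, and the lowest values were 1.64 and 1.58. Over all peaks the medians were 2.25 and 2.20.

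The genes' peaks were called longer in detrained muscle. Median lengths were 1904 bp (control) and 2474.5 bp (detrained), against 1568 and 1798 bp over all peaks. Some neighboring control peaks were called as 1 detrained peak. At Cdh5, for example, the control peaks at chr8:104094524-104098442 and chr8:104099329-104104667 faced a single detrained peak at chr8:104094394-104103998. Of the control peaks, 36 of 156 had no overlapping detrained peak (23.1%, against 27.9% of all control peaks), and of the detrained peaks 18 of 132 had no overlapping control peak (13.6%, against 18% of all). The peaks without a counterpart were weak, with medians of 10.3 and 13.75 pooled tags per 10000000. Distances from a gene's start are given in kb, negative upstream. In control the strongest of these peaks stood at 87.5 kb (58.1 tags) and -77.2 kb (52.5 tags) from the Ets1 start, in Tek at 90.9 kb (38.2), near Aplnr at 21.6 kb (35.3) and in Erg at 60.1 kb (35.3). In detrained muscle the strongest stood at -25.02 kb from Egfl7 (58.9 tags), at -190.6 kb from Emcn (44.7), in exons of Hey1 at 2.12 kb (32.4) and Vwf at 50.4 kb (25.5), and in Tek at 88.2 kb (22.7).

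Peaks of both tables that covered at least 50% of each other were paired one to one, which gave 82 pairs at 32 of the 35 genes, counting 1 pair assigned to Cd34 in the detrained table only. Pecam1, Emcn and Plvap had peaks in both tables but no such pair. H3K27ac density (tags per 10000000, divided by the peak's length in kb) differed little between the groups at these pairs. The median log2 ratio of detrained over control was 0.0013, with quartiles of -0.095 and 0.18 and a range from -0.52 to 0.67, against a median of -0.026 over all 26432 pairs. The SD between libraries of a group had a median of 0.26 at the endothelial pairs and of 0.14 over all pairs, and the ratio was larger than its SD at 23 of the 82 pairs (28.0%), against 56.9% of all pairs. Both detrained libraries lay above both control libraries at 14 pairs (17.1%, against 21.3% of all pairs), and both lay below at 8 (9.76%, against 27.2%). At least 1.5-fold apart without overlap were 2 pairs higher in detrained muscle, those of Fli1 and Notch1 (2.44%, against 1.1%), and 0 pairs lower (against 2.06%). Leaving out 1 library, which by itself makes overlap rarer, moved these counts strongly: 42 pairs lay above without C3 (51.2%, against 38.7% of all pairs) and 49 without Ex2 (59.8%, against 37.2%), and 29 lay below without C2 (35.4%, against 45.5%) and 38 without Ex1 (46.3%, against 43.4%).

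Peak length bears on each of these densities. The detrained peak was the longer at 55 of the 82 pairs (67.1%, against 51.6%), with a median log2 length ratio of 0.12, against 0.014 over all pairs. Tags per peak, which leave length out, had a median log2 ratio of 0.14, against -0.019 over all pairs, with both detrained libraries above at 23 pairs (28%, against 24.6%) and below at 9 (11%, against 28.8%). By tags per peak without overlap, 11 pairs were at least 1.5-fold higher (13.4%, against 5.51%) and 2 lower (2.44%, against 5.08%). Density and tags per peak pointed the same way at 43 of the 82 pairs. Above in both measures lay 5 pairs, 1 of Cd34 (a pair whose control peak is assigned to Mir3962), 1 of Notch1, 2 of Ptprb and 1 of Tek (6.1%, against 6.36%), and below in both lay 1, that of Hey1 at -53.4 kb (1.22%, against 9.61%). Across the 82 pairs the density ratio and the length ratio had a Spearman rho of -0.45 (-0.53 over all pairs), and length enters both quantities.

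**Figure D1:**
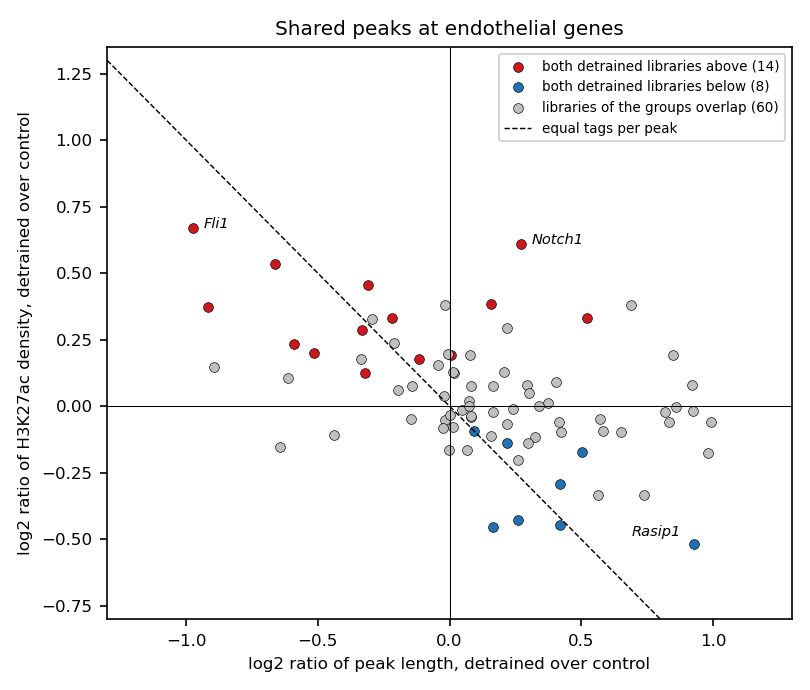
Log2 ratio of H3K27ac density (vertical axis) against log2 ratio of peak length (horizontal axis), both detrained over control, at the 82 shared pairs of the endothelial genes. Red points (14) have both detrained libraries above both control libraries, blue points (8) below, gray points overlap, and the dashed line marks equal tags per peak. Fli1 is high with a shorter detrained peak, Rasip1 is low with a longer one, and Notch1 lies above the dashed line.

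The 5 pairs with the highest density ratio and the 5 with the lowest show how the measures part. In intron 1 of Fli1, 63.2 kb from its start, density was 16.4 and 16.8 in control and 28.8 and 24.3 in detrained libraries (log2 ratio 0.67, SD 0.12). There the detrained peak was 633 bp long and the control peak 1243 bp, and tags per peak were lower, with a log2 ratio of -0.30. In intron 2 of Notch1 density was 16.9 and 18.9 in control and 30.8 and 24.2 in detrained libraries (log2 ratio 0.61, SD 0.19), and tags per peak were also higher, at 35.02 and 39.2 against 77.2 and 60.6. The Notch1 groups therefore did not overlap in either measure. A peak assigned to Icam2 but lying in an intron of Ern1 (0.54 in density, -0.13 in tags per peak), a peak at -50.1 kb from Hey1 (0.46 and 0.15) and a peak assigned to Ptprb but lying in Ptprr (0.39 and 0.54) completed the highest 5. At the lowest ratio, the peak over the Rasip1 start had densities of 42.5 and 53.8 in control and 37.7 and 29.7 in detrained libraries (log2 ratio -0.52, SD 0.24), while its tags were 104 and 131 against 175 and 138. The control peak spanned 2445 bp and the detrained peak 4656 bp, so the measures differ in sign. Next came Hey1 at -53.4 kb (-0.46 in density, -0.29 in tags per peak), Notch4 at -7.22 kb (-0.45 and -0.02), Tek in intron 2 (-0.43 and -0.17) and the Nos3 promoter (-0.33 and 0.23).

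Junction and surface proteins hold endothelial cells together and mark them for passing leukocytes. Their 7 genes had 31 control and 29 detrained peaks, and the 13 pairs among them had a median log2 density ratio of -0.06, with 3 pairs above and 2 below. Here and for the other roles, such counts stand against 21.3% above and 27.2% below over all pairs. Pecam1, an adhesion protein of endothelial contacts, had summed tags (all peaks of the gene, per 10000000) of 732 and 804 in control and 817 and 726 in detrained libraries, which overlap. For Cdh5, the cadherin of endothelial adherens junctions, the sums were 244 and 313 against 401 and 255. Its strongest pair was a weak intergenic peak at -79.2 kb, with densities of 16.7 and 23.0 against 23.6 and 21.2. Cldn5, the claudin of endothelial tight junctions, had sums of 199 and 245 against 312 and 233, and its peak over the start a density of 28.2 and 40.7 against 36.9 and 28.6. In both genes the groups overlapped, with C3 and Ex1 the higher libraries. Esam, an adhesion molecule of tight junctions, was among the densest, with 53.1 and 69.1 against 74.1 and 49.5 at its start, and a log2 ratio of 0.0013 (SD 0.35). Icam2, a ligand for leukocyte integrins, had densities of 30.4 and 36.8 against 44.7 and 39.5 at its promoter (log2 ratio 0.33, SD 0.17), without overlap. Its sums, 297 and 375 against 387 and 327, did overlap. Emcn, the sialomucin endomucin, had low sums of 62.2 and 86.2 against 107 and 75.1.

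Cd34, a sialomucin of endothelial and stem cells, was also among the densest, at 61.3 and 58.8 in control and 60.3 and 54.5 in detrained libraries (log2 ratio -0.07, SD 0.08). That peak, chr1:194937776-194946325 in control, covers the promoter printed above. The sums of Cd34 were 850 and 803 against 1054 and 1023, without overlap. The detrained sums include a peak that the detrained table assigns to Cd34, whereas its control counterpart at chr1:194878452-194882330 is assigned to Mir3962 and left out. Counted for Cd34 in both tables, the sums were 1024 and 953 against 1054 and 1023, and the groups overlapped. Cd34 was also the only gene besides Plvap with a lower sum in C3 than in C2.

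Receptors of vessel growth and stability made up the next 7 genes, with 18 pairs and a median log2 density ratio of 0.05. Both detrained libraries lay above at 5 of these pairs and below at 2. Tek, the angiopoietin receptor TIE2, had densities of 44.9 and 46.2 in control and 50.4 and 49.0 in detrained libraries at its strongest pair, near its start (log2 ratio 0.13, SD 0.03). Tags per peak of the same pair were lower in detrained muscle (log2 ratio -0.19), and the sums of Tek, 585 and 625 against 561 and 536, were lower as well, without overlap. The direction at Tek thus depends on whether length is counted. Tie1, its partner receptor, had 21.3 and 30.5 against 36.2 and 26.98 in density at its promoter (log2 ratio 0.30, SD 0.34), overlapping. Ptprb, the phosphatase VE-PTP that acts on TEK, had sums of 484 and 634 against 969 and 641, without overlap but with 641 close to 634. Of its 11 peaks in each table, 5 lay in the body of the neighboring Ptprr, and the genes cannot be told apart there by nearest-gene assignment.

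Acvrl1, the receptor ALK1 for BMP9 and BMP10, carried the densest pair of all, in its last intron at chr15:101139401-101147006, with 73.3 and 76.7 in control and 70.4 and 65.8 in detrained libraries. The log2 density ratio was -0.14 (SD 0.06) and the groups did not overlap, while tags per peak had a ratio of 0.08 and the sums, 967 and 1020 against 1129 and 978, overlapped. Eng, the co-receptor endoglin, had densities of 35.2 and 44.3 against 44.0 and 30.2 at its start. Robo4, a receptor that stabilizes vessels, had 27.5 and 31.0 against 39.3 and 24.1 in its only peak. Aplnr, the receptor of apelin, had 29.0 and 40.2 against 37.7 and 25.5 over its single exon. In each of these 3 genes the groups overlapped, with Ex1 far above Ex2.

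The 4 genes of the Notch pathway shared 12 pairs, with a median log2 density ratio of -0.02, 3 pairs above and 3 below. Dll4, the Notch ligand of arteries and sprouting tip cells, had densities of 20.5 and 30.5 in control and 26.6 and 20.6 in detrained libraries at its strongest pair, at -12.7 kb. Notch1, the receptor, had 40.8 and 45.6 against 49.8 and 34.9 near its start, while its second-intron peak, printed above, did not overlap between the groups. Notch4, a receptor found mainly in endothelium, had 28.1 and 38.1 against 43.2 and 29.6 over its first exon. At these strongest pairs of the 3 genes the densities overlapped. Hey1, a transcriptional repressor switched on by Notch, had 49.5 and 51.4 against 47.1 and 36.1 at its promoter (log2 ratio -0.29, SD 0.19), without overlap. The tags per peak there gave a ratio of 0.13, and the sums of Hey1, 306 and 344 against 379 and 339, overlapped. Its 7 peaks in each table lay as far away as -100.4 kb, and 2 of the distal ones were higher and 1 lower in detrained density without overlap.

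ETS factors had the most peaks, 39 in control and 31 in detrained muscle at 3 genes. Their 19 pairs had a median log2 density ratio of 0.04, with 3 pairs above (against 21.3% of all pairs) and 0 below (against 27.2%). Erg had densities of 39.1 and 46.6 in control and 52.6 and 44.3 in detrained libraries at its strongest pair, an intronic peak 55.9 kb from the start used by the files, and sums of 1151 and 1537 against 1615 and 1110. Fli1 had 40.4 and 52.3 against 56.5 and 41.6 at its promoter, and sums of 1408 and 1638 against 1921 and 1418. Ets1 had 56.9 and 63.4 against 70.1 and 54.4 at its promoter, and sums of 1482 and 1523 against 1644 and 1460. All 3 overlapped at the strongest pair and in the sums. The non-overlapping Ets1 pairs, at -20994 and 93096 bp, had log2 density ratios of 0.20 and 0.23, but tags per peak of -0.31 and -0.35. Overlapping peaks of both groups were also merged into loci, with tags divided by the joint span, so that called length counts. Ets1 loci then lay above without overlap at log2 ratios of 1.42, 1.34, 1.24, 0.77 and 0.67 (against 28.2% of all loci). Others lay below at -0.55, -0.24 and -0.20 (against 29.4%), the last 2 at the pairs just named. Fli1 and Ets1 are neighbors, with 92.8 kb between them, so peaks in that gap fall to one or the other by distance alone.

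The SOXF genes had 15 control and 11 detrained peaks and 9 pairs, and in density none of the 9 separated the groups. By tags per peak both detrained libraries lay above at 4 of the 9 (against 24.6% of all pairs), at the start of Sox17 (log2 ratio 0.86), at its peak at -74.3 kb (0.81) and at Sox7 peaks at -21.1 kb (0.37) and downstream of the start (0.91). Sox7 had densities of 46.7 and 71.4 in control and 62.3 and 59.7 in detrained libraries at its strongest pair, at -21.1 kb. Sox17 had 28.9 and 42.1 against 38.9 and 31.2 over its start, and Sox18 had 34.2 and 54.0 against 46.6 and 34.7. C3 was well above C2 at these genes, with a median log2 difference of 0.54 over the 9 pairs, above the same median for each of the other roles. The sums of Sox17, 274 and 385 against 484 and 390, did not overlap, by a margin of 390 over 385. At its start a control peak of 3688 bp faced a detrained peak of 6689 bp that also took in the ground of a separate control peak. The log2 density ratio of that pair was -0.0026.

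Tal1, Lyl1 and Gata2 encode factors shared by endothelial and blood-forming cells. Tal1 had densities of 39.7 and 55.5 in control and 48.8 and 38.8 in detrained libraries at its start. Gata2 had 26.3 and 31.7 against 39.0 and 25.6 over an intron. Both overlapped between the groups. Lyl1 had 40.02 and 40.9 against 45.5 and 40.8 at its strongest pair, a 17121 bp control peak that runs on into the neighboring Nfix. All of its peaks, 3 in control and 2 in detrained muscle, had their centers within the body of Nfix, which codes for a transcription factor of muscle. The sums of Lyl1, 1847 and 2103 against 1304 and 1201, were lower in detrained muscle without overlap. The control sum includes the peak at chr8:84721827-84739522, with 1100.5 pooled tags, which faces a detrained peak of 1351.6 tags assigned to Nfix. Once such overlapping peaks were joined, the sums were 2319 and 2575 against 2621 and 2585, with a log2 ratio of 0.09 in place of -0.66.

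Secreted and matrix proteins were represented by Egfl7, Mmrn2 and Vwf. Egfl7, a matrix protein of vessels whose gene also hosts Mir126a, had densities of 38.4 and 54.9 in control and 65.3 and 44.9 in detrained libraries over a peak that spanned 18599 bp in the control and 16060 bp in the detrained table. Mmrn2, a matrix glycoprotein of endothelium, had 28.7 and 34.7 against 39.0 and 27.3. Vwf, the platelet-binding protein von Willebrand factor, had 31.3 and 39.3 against 34.9 and 33.5 in an intron 20.3 kb from its start. All 3 pairs overlapped. The sums of Vwf, 81.9 and 102 against 165 and 150, gave the highest log2 ratio of the 35 genes at 0.78 (SD 0.17), with 3 peaks in control and 5 in detrained muscle, and total peak length was 3411 bp against 7222 bp. Density over all its peaks was lower, with a log2 ratio of -0.31.

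Capillary specialization was covered by 5 genes. Nos3, the endothelial nitric oxide synthase, had a single promoter peak with densities of 26.5 and 39.7 in control and 30.8 and 21.5 in detrained libraries. Gpihbp1, which carries lipoprotein lipase to the capillary lumen, had 35.9 and 42.6 against 49.3 and 37.0. Fabp4, a fatty-acid-binding protein of capillaries and fat cells, had 29.9 and 46.6 against 47.6 and 35.9. All 3 overlapped between the groups. Of 4 fat-cell markers, Adipoq, Plin1 and Cidec had no peak in either table, and Lep had 2 weak peaks in control (sums of 15.1 and 19.7) and 0 in detrained muscle. Rasip1, needed for vessel lumen formation, is described above. Plvap, the protein of the diaphragms of fenestrated capillaries, had the smallest sums, 50.6 and 47.1 against 61.1 and 63.0 (log2 ratio 0.34, SD 0.06), and these did not overlap, while its peak length was 1670 bp against 3181 bp.

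**Figure D2:**
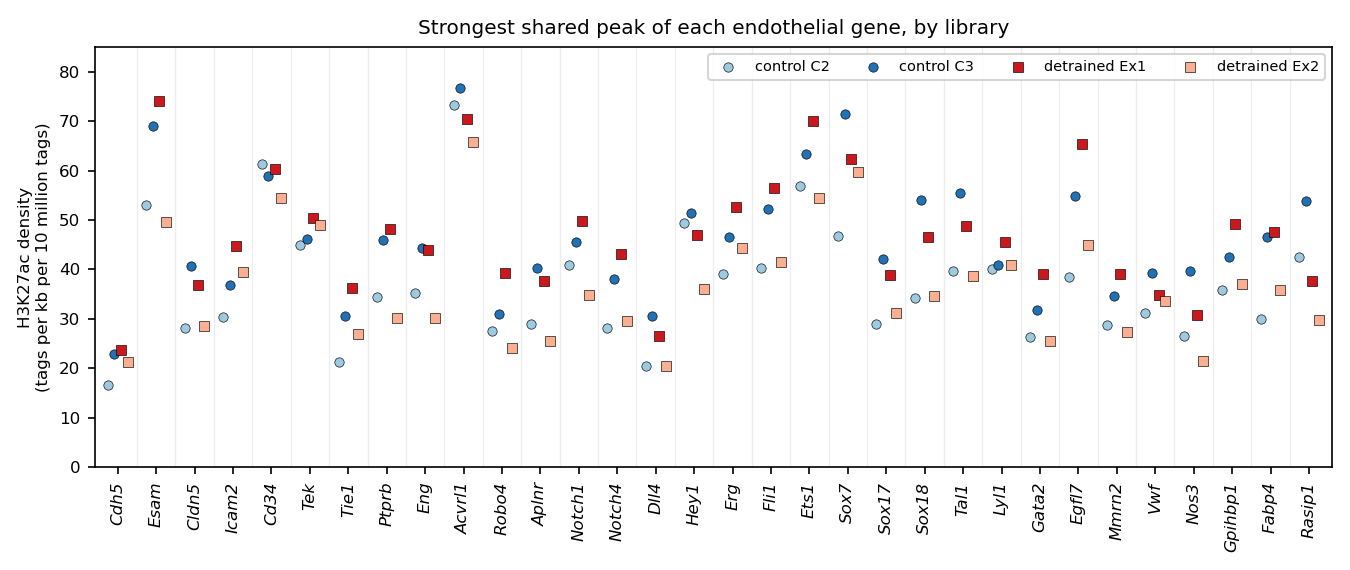
H3K27ac density in tags per kb per 10000000 tags (vertical axis) at the strongest shared pair of each of 32 endothelial genes (horizontal axis), with 1 point per library. C3 lies above C2 in 31 genes and Ex1 above Ex2 in all 32, and the groups separate upward in 2 genes (Tek and Icam2) and downward in 3 (Acvrl1, Hey1 and Rasip1).

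The libraries of a group differed more from each other at these genes than the groups did. On the deposited log2 values, C3 was above C2 at 115 of the 156 control peaks (73.7%, against 56.9% of all control peaks), with a median difference of 0.22, against 0.047 over all peaks. Ex1 was above Ex2 at 107 of the 132 detrained peaks (81.1%, against 59% of all), with a median of 0.32, against 0.053. Strong peaks, of at least 100 tags per 10000000, showed it too: C3 was above C2 at 42 of 47 (71.2% of all such peaks), and Ex1 above Ex2 at 49 of 52 (68.7% of all). At the 82 pairs both differences pointed this way at 64 (78%, against 40.1%). Median log2 densities there were 4.81 (C2) and 5.18 (C3) against 5.24 (Ex1) and 4.88 (Ex2), so C3 lay nearest to Ex1 and C2 nearest to Ex2. The median of Ex1 minus C2 was 0.38 and that of Ex2 minus C3 was -0.30, both farther from 0 than the group ratio of 0.0013.

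**Figure D3:**
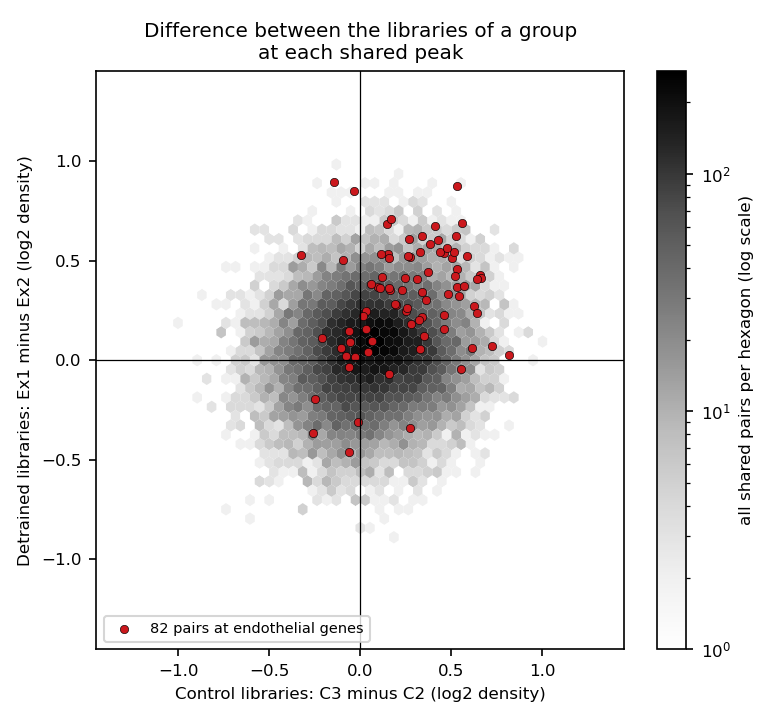
Difference in log2 density between the control libraries (C3 minus C2, horizontal axis) and between the detrained libraries (Ex1 minus Ex2, vertical axis) at the 82 shared pairs of the endothelial genes (red points), over all 26432 shared pairs (gray hexagons, log color scale). Of the red points, 64 lie in the upper right, where both differences are above 0.

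Marker lists of other cell types were set beside this difference. A list of 50 further endothelial genes, such as the VEGF receptors Kdr and Flt1, had 47 genes with a peak in control and 45 in detrained muscle, without Nrp1, Foxc2 and Foxf1 in either table. Its median difference was 0.14 for C3 minus C2 (204 of 291 peaks above) and 0.22 for Ex1 minus Ex2 (210 of 271). Its summed tags were 24189 (C2) and 27930 (C3) against 30878 (Ex1) and 25220 (Ex2). Muscle fiber markers had a median difference of 0.29 in control (26 of 31 peaks) but of 0.05 in detrained muscle (18 of 27). Pericyte and smooth muscle markers (9 of 9 genes with a peak in control, 7 of 9 in detrained muscle, without Tagln and Kcnj8) lay at 0.19 (28 of 36) and 0.08 (15 of 24), with sums from 2584 to 2900 in control and from 2577 to 2701 in detrained muscle. Fibroblast markers (8 of 8 genes) lay at -0.02 (25 of 53) and -0.0026 (23 of 46), with sums from 4825 to 4898 and from 5450 to 5540. Immune markers (8 of 12 and 9 of 12 genes) pointed opposite ways, at -0.16 (3 of 12) and 0.19 (12 of 16), with sums of 461 (C2) and 395 (C3) against 680 (Ex1) and 590 (Ex2), and Cd68 and Cd79a had no peak in either table.

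Other lists had few peaks. Lymphatic endothelial markers had 4 of 6 genes with a peak in control and 1 of 6 in detrained muscle, where Prox1, Lyve1 and Flt4 had none. Pdpn, the one with peaks in both tables, had sums of 298 (C2) and 268 (C3) against 360 (Ex1) and 370 (Ex2), without overlap, and the control sums of all 4 genes were 413 and 385. The globin genes Hba-a1, Hbb-bs and Hbb-b1 had no peak in either table. Satellite cell markers had 3 of 4 genes with a peak in each table, with sums from 419 to 427 in control and from 472 to 550 in detrained muscle. Library C3 also had the largest share of its tags in listed peaks, 49.4% against 45.5% in C2, and Ex1 had 46.9% against 44.8% in Ex2. The part of cell make-up, of enrichment and of handling in these library differences was not tested.

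**Figure D4:**
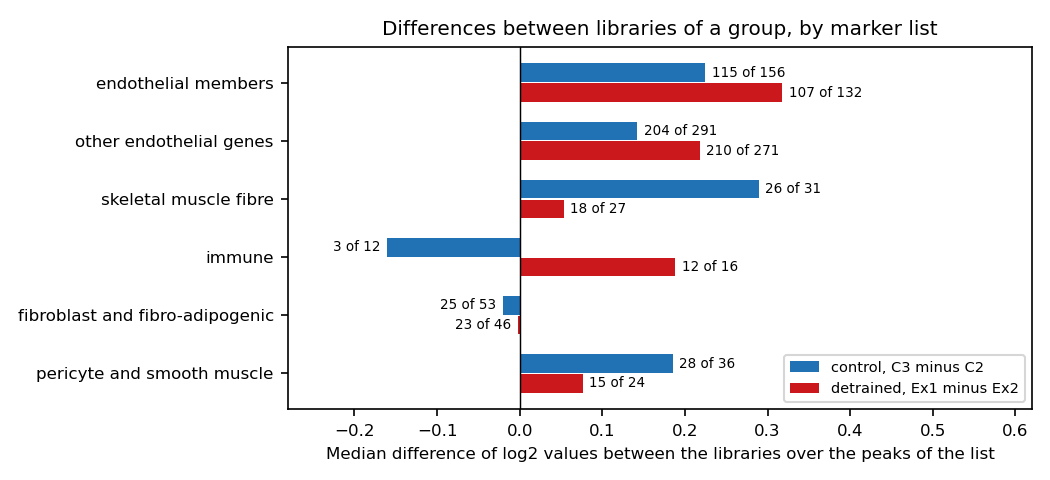
Median difference of deposited log2 values between the libraries of a group (horizontal axis), over the peaks of each marker list with enough peaks in both tables, for control (blue, C3 minus C2) and detrained (red, Ex1 minus Ex2). The count beside each bar is the number of peaks above 0. Both endothelial lists lie above 0 in both groups, at 0.22 and 0.32 for the 35 genes. The muscle fiber list (0.29 and 0.05) and the pericyte and smooth muscle list (0.19 and 0.08) also lie above 0 in both.

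Summed over all peaks of the 35 genes, tags per 10000000 were 15980 (C2) and 19204 (C3) against 20679 (Ex1) and 16344 (Ex2). The mean sum of a gene was higher in detrained muscle for 32 of the 35 genes (91.4%, against 42.4% of 13524 genes), with a median log2 ratio of 0.15, against -0.05 over all genes. The SD within a group, however, had a median of 0.29 (0.11 over all genes), and the libraries overlapped for most genes. Both detrained libraries were above both control libraries for 5 (Sox17, Vwf, Plvap, Cd34 and Ptprb), against 24.3% of all genes, and below for 2 (Tek and Lyl1), against 35.2%. With each library scaled to its tags in the listed peaks, 11 lay above, against 31.1% of all genes, and 2 below, against 30.0%. C3 exceeded C2 and Ex1 exceeded Ex2 for 33 of the 35 (94.3%, against 44.8%). The count of 32 depended on single libraries: it was 19 without C2 and 12 without Ex1, but 33 without C3 or without Ex2. Over all genes the same shares were 39.0%, 36.2%, 48.9% and 49.1%. In the lists of other cell types, with all libraries, the mean sum was higher in detrained muscle for 7 of 8 fibroblast and 6 of 7 immune genes. It was higher for 4 of 7 pericyte and smooth muscle genes and 3 of 13 muscle fiber genes.

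Length and assignment also bear on these sums. Divided by the summed peak length, the level was higher in detrained muscle for 24 of the 35 genes (68.6%, against 48.4% of all genes), with a median log2 ratio of 0.07, against -0.009 over all genes. With peaks that overlap between the tables joined and counted for a gene in both, 32 of the 35 were higher (against 41.8% of all genes), with Pecam1 now lower and Lyl1 now higher. Of the joined sums, 5 lay above without overlap (Sox17, Vwf, Plvap, Ptprb and Lyl1, against 23%) and 1 below (Tek, against 34.9%). Assignment differed between the tables for overlapping peaks at 6 genes, Cd34, Pecam1, Eng, Sox18, Egfl7 and Lyl1. Joining left Pecam1 at 1065 and 1192 against 1116 and 989. Lyl1, Fli1, Ets1, Erg and Acvrl1 had the most summed tags, and their sums were spread over peak lengths of 38979, 42969, 43220, 35897 and 17489 bp in control.

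**Figure D5:**
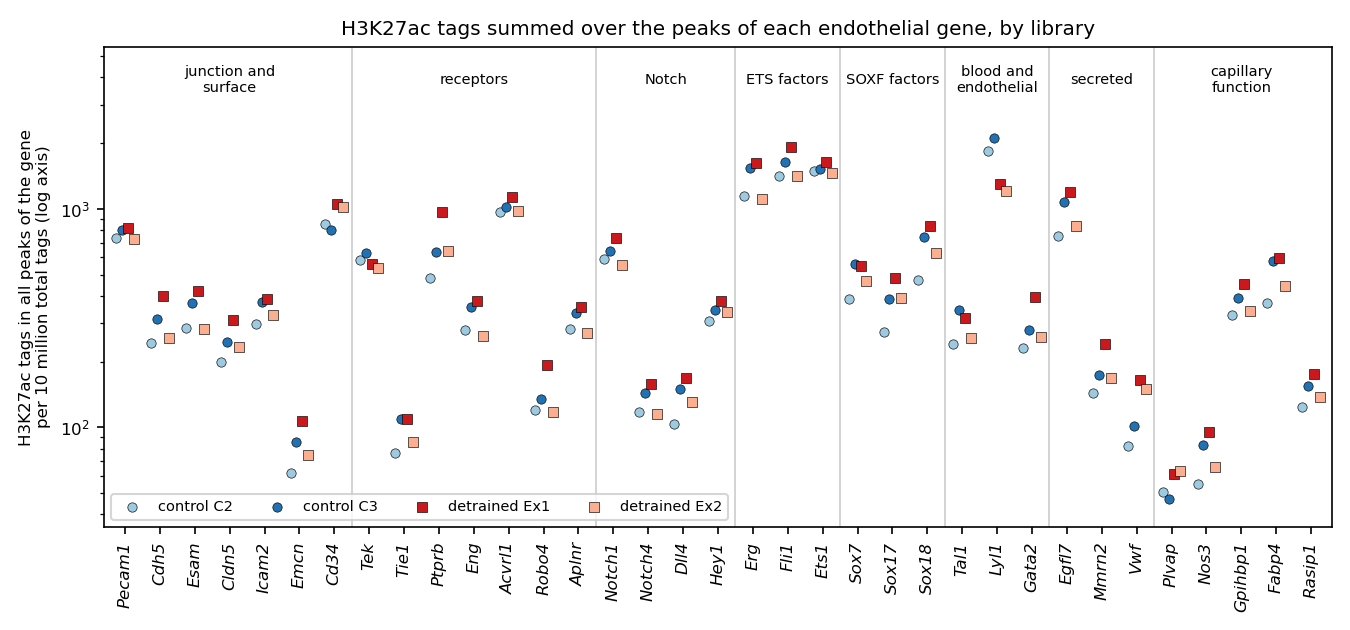
H3K27ac tags summed over all peaks of each of the 35 endothelial genes (vertical axis, tags per 10000000, log axis), with 1 point per library and genes along the horizontal axis. For 33 genes C3 lies above C2 and Ex1 above Ex2. The groups overlap except at Sox17, Vwf, Plvap, Cd34 and Ptprb (detrained higher) and Tek and Lyl1 (detrained lower).

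The 50 further endothelial genes are given for comparison between the groups. Their 141 pairs had a median log2 density ratio of 0.04, with 25 above (against 21.3% of all pairs) and 20 below (against 27.2%), and the sums were higher in detrained muscle for 29 of the 45 genes with peaks in both tables (against 42.4% of all genes). C3 exceeded C2 and Ex1 exceeded Ex2 for 37 of the 45 (against 44.8% of all genes). Flt1, the decoy VEGF receptor, had sums of 774 and 951 in control and 1364 and 947 in detrained libraries, and Kdr, the main signaling VEGF receptor, 589 and 764 against 1011 and 687. Both receptors overlapped between the groups. Without overlap, Aqp1, a water channel, had 592 and 701 against 969 and 721, and Car4, a carbonic anhydrase of capillaries, 76.1 and 96.2 against 166 and 159. Efnb2, an ephrin of arteries, lay the other way, at 263 and 269 against 185 and 179. These 5 genes were chosen after their values were seen.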

How the data were processed

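H3K27ac ChIP sequencing of quadriceps was compared between 2 control and 2 detrained libraries, with 1 input each. Per the labels and the study's methods, reads were aligned to mm10 with Bowtie (1.2 in the submitters' processing notes), and the authors called peaks with replicates in HOMER, 1 table per group. In the deposited tables the Peak Score is a signal, the pooled tags of both libraries per 10000000, and the library columns are log2 values, normalized to total tags and variance-stabilized within HOMER. The authors' log2 fold over input and adjusted p-value columns served only as filters of peaks.

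Each library's tags were estimated by sharing the pooled tags in proportion to total tags and log2 value, and density is these tags plus 0.5, per kb and 10000000. Peaks covering at least 50% of each other were paired. Weak peaks are shrunken toward equal libraries, which understates their differences. The spread between 2 libraries may be partly technical. The genes and lists were chosen with earlier results of these data known. Named were, per gene, the strongest pair, then the 5 highest and 5 lowest ratios, the 5 strongest unpaired peaks per table and the 5 largest sums. The steps, run in Python 3.11.15 (matplotlib 3.10.9, scipy 1.17.1, numpy 2.4.6, pandas 2.3.3), were tested on simulated data. Gene bodies and promoter windows came from RefSeq (GRCm38.p6). Alternatives were tags per peak, other overlaps, scalings, filters, merged peaks and single libraries left out.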

Additional observations from a re-analysis of the deposited data

How the results depend on the processing

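No paired analysis was possible because only number 2 occurs among the columns of both groups (C2 and Ex2), and no between-group test was made. The main values for the pairs were 14 above, 8 below and, at least 1.5-fold apart, 2 above and 0 below. With tags per peak these became 23 above, 11 at least 1.5-fold above and 2 at least 1.5-fold below. With overlapping peaks merged, chosen after seeing the data, 104 loci gave 32 above (30.8%, against 28.2% of all 31776 loci), 10 below (9.62%, against 29.4%), 14 at least 1.5-fold above (13.5%, against 10.2%) and 2 below (1.92%, against 7.96%). The median log2 ratio of the 104 loci was 0.14, a value not taken over all loci. Tags in a group's called peaks were divided by the joint span, so longer calls raise a group's value here. Pairs covering 80% or more of each other numbered 38, with 5 above (13.2%, against 16.5% of all such pairs), 3 below (7.89%, against 23.7%) and 0 at least 1.5-fold above (against 0.263%), and adding 5 tags left 1 at least 1.5-fold above (against 1.04%). Leaving out each library in turn gave 14 to 49 above, 10 to 38 below, 1 to 7 at least 1.5-fold above and 0 to 4 below (over all pairs 28.8% to 38.7%, 35.9% to 45.5%, 1.305% to 2.44% and 2.21% to 4.08%), and median log2 density ratios from -0.16 to 0.20. Peaks at least 4-fold over input with adjusted p under 0.001 numbered 81 in control and 85 in detrained muscle. Of the former, 90.1% overlapped a detrained peak that also passed this filter. Without the filter, 76.9% of all control peaks of these genes overlapped any detrained peak. The filtered counts and share were not taken over all peaks. Requiring 50% of each peak covered lowered the overlapping shares to 51.9% in control and 62.1% in detrained muscle. Over all peaks, this setting paired 26432 of 46988 control peaks and 26432 of 40721 detrained peaks. A peak center within 1 kb of the start put 12.2% of control peaks at promoters (against 20.5% of all control peaks) and 10.6% of detrained peaks (against 23.4%). In tags per peak the sign turned for 17 of the 32 strongest pairs. Of the 5 pairs whose density separated the groups it turned for 4, Acvrl1 (0.080), Hey1 (0.13), Rasip1 (0.41) and Tek (-0.19). With peaks joined the sign turned for the sums of Lyl1 (0.089) and Pecam1 (-0.10, from 0.0075). Signal at weak peaks is limited by depth, since a median unpaired peak held 10.3 to 13.75 pooled tags per 10000000.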
